A study of Homo sapiens with 24 samples.

Results

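DKK1 and 8 genes of the Wnt pathway's own feedback and transcription machinery were followed across 24 RNA sequencing libraries. The 9 genes, DKK1, DKK3, AXIN2, RNF43, ZNRF3, TCF7, TCF7L2, LEF1 and SP5, were taken by symbol from the 26450 genes of the deposited table, and all 9 were found. They were grouped around DKK1 because its level in PANC-1 cells was already known to differ between culture formats, so DKK1 in PANC-1 is described here without a test. The libraries came from 2 human lines, PANC-1, a pancreatic duct epithelial line derived from a carcinoma, and HEK293T, an embryonic kidney line that carries the SV40 large T antigen. Spheroids of each line were grown either in a capillary container rotated about 2 axes (a dual-axis rotating capillary container, DRCC), at 30 rpm or at 1 rpm, or in AggreWell microwells, and the comparison culture was 2D, with 3 libraries in each of the 8 groups. No other treatment and no genetic change is named in the labels. Nothing there tells whether the 3 libraries of a group were grown separately, so the spread behind each p-value may be technical alone.

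Canonical Wnt signalling starts when a secreted Wnt ligand joins a Frizzled receptor to the co-receptors LRP5 and LRP6. A destruction complex built on AXIN and APC then stops degrading beta-catenin, which enters the nucleus and works with TCF and LEF proteins on target genes. Several of those targets feed back on the pathway. DKK1 is a secreted inhibitor that binds LRP5 and LRP6, AXIN2 rebuilds the destruction complex, RNF43 and ZNRF3 are membrane ubiquitin ligases that remove Frizzled from the cell surface, and SP5 is a transcription factor induced by the pathway. TCF7, TCF7L2 and LEF1 are DNA-binding partners of beta-catenin, and DKK3 is a secreted relative of DKK1 that differs from it in not blocking LRP6 in the usual assays.

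The promoter of DKK1 and that of SP5 are shown because both hold several copies of the short core that TCF and LEF proteins bind. They are RefSeq windows of GRCh38.p14, each 300 bases long, with 250 bases before and 50 after the gene's start. Capitals mark each match to CTTTGAA or to CTTTGAT, or to CTTTGTT or to CTTTGTA, read on either strand, and no 2 matches overlap.
DKK1, chr10:52314031-52314330, plus strand: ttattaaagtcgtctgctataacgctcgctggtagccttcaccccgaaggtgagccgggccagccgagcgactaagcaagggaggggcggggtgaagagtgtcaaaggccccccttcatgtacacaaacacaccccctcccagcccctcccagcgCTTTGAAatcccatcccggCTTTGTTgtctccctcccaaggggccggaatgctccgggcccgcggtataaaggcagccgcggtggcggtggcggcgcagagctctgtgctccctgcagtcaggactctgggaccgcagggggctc
SP5, chr2:170715087-170715386, plus strand: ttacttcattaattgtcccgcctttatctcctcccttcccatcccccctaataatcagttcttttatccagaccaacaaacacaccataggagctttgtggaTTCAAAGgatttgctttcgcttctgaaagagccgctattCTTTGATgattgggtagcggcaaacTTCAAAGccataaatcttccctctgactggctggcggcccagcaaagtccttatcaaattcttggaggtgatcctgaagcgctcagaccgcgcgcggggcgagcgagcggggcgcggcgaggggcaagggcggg
DKK1 had 2 matches, beginning at positions -95 and -76 relative to its start. SP5 had 3, beginning at positions -148, -109 and -84. One or more such matches stood in 13.8% of all 35116 windows of the same length, and in 4 of the 10 windows found for 6 of the 9 genes. The other 2 windows with a match belonged to TCF7 and TCF7L2, with 1 match each. A match describes these letters and is not a measured binding site.

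Expression was deposited as FPKM, fragments per kilobase of transcript relative to the library's total. Recovered totals were lower in DRCC than in the other formats. In PANC-1 they ran from 36492538 to 36890881 fragments at 30 rpm and from 34018135 to 36656956 at 1 rpm, against 38239396 to 39110085 in AggreWell and 38061349 to 39556154 in 2D. In HEK293T they ran from 32021638 to 32557265 at 30 rpm and from 35020379 to 35675959 at 1 rpm, against 37151862 to 37880395 in AggreWell and 38778091 to 39345190 in 2D. Mitochondrially encoded genes took 1.60% of PANC-1 fragments at 30 rpm and 2.37% at 1 rpm, against 4.28% in AggreWell and 4.33% in 2D, and between 3.47% and 4.77% in the 4 HEK293T groups. The part of depth or of this share in the results was not tested beyond the scalings given beside them. The summed levels of line markers followed the labels. A list of 8 PANC-1 markers summed to between 2098 and 2665 FPKM in PANC-1 libraries and to between 5.19 and 10.2 FPKM in HEK293T libraries. Of the 8, 6 or 7 reached 1 FPKM in each PANC-1 format, and 2 or 3 in each HEK293T format. The 7 HEK293T markers in the table summed to between 32.9 and 59.7 FPKM in HEK293T libraries and to between 9.54 and 15.9 FPKM in PANC-1 libraries. Of the 7, 6 or 7 reached 1 FPKM in each HEK293T format, and 2 in each PANC-1 format. A list of 12 leukocyte, endothelial and fibroblast markers summed to 67.9 to 71.8 FPKM at 30 rpm, 66.2 to 71.4 at 1 rpm, 59.7 to 61.8 in AggreWell and 65.3 to 74.5 in 2D for PANC-1, with 3 of the 12 reaching 1 FPKM and 2 or 3 at 0 in each format. Fewer expressing cells and less RNA per cell cannot be told apart in these bulk libraries.

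DKK1 had the widest range across formats of the 9 genes in PANC-1. Its level was 11.4, 12.4 and 13.1 FPKM in the 3 DRCC 30 rpm libraries and 9.77, 10.1 and 8.81 FPKM in the DRCC 1 rpm libraries. AggreWell spheroids had 142, 145 and 140 FPKM, and 2D cultures 138, 143 and 149 FPKM. All 6 DRCC libraries lay far below the other 6, while the AggreWell and 2D libraries overlapped. The DRCC 30 rpm mean was 8.60% of the 2D mean and the DRCC 1 rpm mean was 6.69% of it, against 99.3% for AggreWell. On the log2(FPKM + 1) scale, which adds 1 to each value, the differences from 2D were -3.44 ± 0.05 (SE) at 30 rpm, -3.77 ± 0.05 at 1 rpm and -0.01 ± 0.05 in AggreWell. These are descriptions and carry no p. The counts behind them were 761 to 869 fragments per library at 30 rpm and 583 to 656 at 1 rpm.

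**Figure D1:**
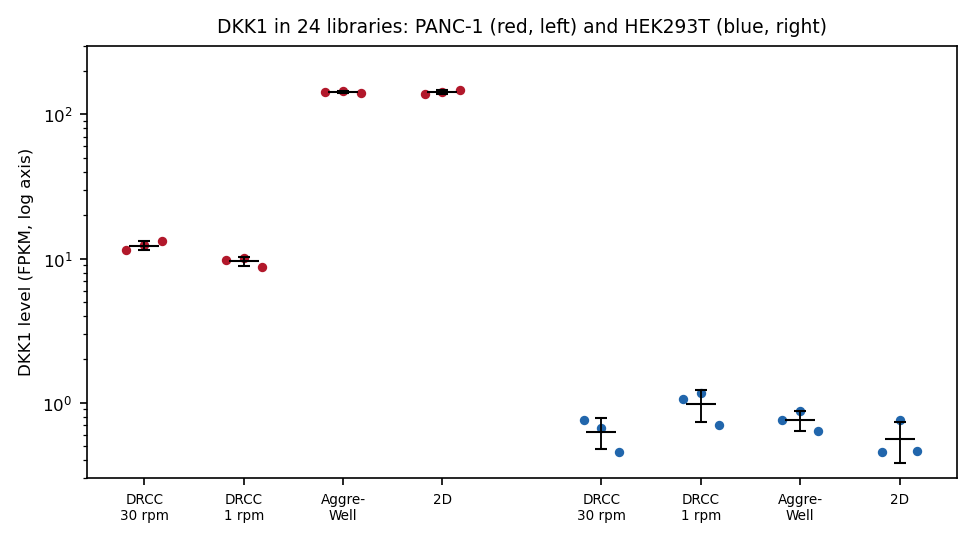
DKK1 level in FPKM on a log axis, by culture format, with 1 point per library, a bar at the mean and whiskers of 1 SD (n = 3 libraries). The 6 PANC-1 DRCC libraries lie between 8.81 and 13.1 FPKM, the other 6 PANC-1 libraries between 138 and 149 FPKM, and the HEK293T libraries between 0.456 and 1.17 FPKM.

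The level of DKK1 at 30 rpm was above that at 1 rpm, with means of 12.3 ± 0.861 and 9.57 ± 0.683 FPKM (SD, n = 3 each) and no overlap between the 2 groups. That difference, 0.33 ± 0.05 on the log2 scale, is small beside the distance of both from 2D. It was 0.23 when mitochondrially encoded genes were left out of each library's total. The large differences from 2D varied little with the scaling. With mitochondrially encoded genes left out they were -3.47 at 30 rpm and -3.71 at 1 rpm, and quantile normalization gave -3.38 and -3.70.

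HEK293T cells had little DKK1 in any format. The libraries held 0.757, 0.669 and 0.459 FPKM at 30 rpm, 1.07, 1.17 and 0.705 FPKM at 1 rpm, 0.756, 0.885 and 0.637 FPKM in AggreWell, and 0.456, 0.766 and 0.464 FPKM in 2D. The highest values were those of 2 DRCC 1 rpm libraries, and neighbouring formats overlapped throughout. Each value rests on 27 to 75 fragments. Only 2 of the 12 libraries reached 1 FPKM, so the gene did not pass the filter of at least 1 FPKM in at least 3 libraries. Without that filter the difference at 1 rpm from 2D was 0.34 ± 0.11 (SE) on the log2(FPKM + 1) scale, with an adjusted p of 0.0264, and that at 30 rpm was 0.06 ± 0.11, with an adjusted p of 0.738. The drop seen in PANC-1 under rotation against 2D therefore had no counterpart of that direction in the HEK293T means. Against AggreWell the HEK293T 30 rpm mean was lower, at 82.8% of it, with overlapping libraries.

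DKK3 was also a PANC-1 gene by level, but its pattern across formats differed from that of DKK1. PANC-1 libraries had 13.1, 14.8 and 14.1 FPKM at 30 rpm, 16.8, 15.9 and 16.5 FPKM at 1 rpm, 14.5, 15.1 and 14.6 FPKM in AggreWell, and 22.6, 22.3 and 22.2 FPKM in 2D. All 9 spheroid libraries lay below the 3 of 2D, including the AggreWell libraries in which DKK1 stood at its 2D level. The change against 2D was -0.64 ± 0.04 at 30 rpm (limma, adjusted p = 1.74e-09), -0.43 ± 0.04 at 1 rpm (adjusted p = 1.41e-07) and -0.57 ± 0.04 in AggreWell (adjusted p = 2.30e-08). Between the DRCC speeds DKK3 was lower at 30 rpm, by -0.21 ± 0.04 (adjusted p = 0.000265), where DKK1 was higher. In HEK293T, DKK3 had 0.507, 0.636 and 0.593 FPKM at 30 rpm, 0.925, 0.956 and 1.04 FPKM at 1 rpm, 1.18, 1.01 and 1.15 FPKM in AggreWell, and 0.821, 0.884 and 0.913 FPKM in 2D. It fell at 30 rpm against 2D (-0.25 ± 0.06, adjusted p = 0.00113), with no overlap between the groups. The 30 rpm change was -0.52 with a pseudocount of 0.1. DKK3 passed the filter in HEK293T through 4 libraries, 3 of AggreWell and 1 of DRCC 1 rpm, so the AggreWell difference from 2D, 0.17 ± 0.06, is a description, and it was -0.18 under quantile normalization.

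Within PANC-1, AXIN2, which many cell types switch on when beta-catenin is active, was highest in AggreWell spheroids and lowest in DRCC. PANC-1 libraries had 1.05, 0.836 and 0.889 FPKM at 30 rpm, 0.935, 0.912 and 0.888 FPKM at 1 rpm, 3.05, 2.98 and 2.91 FPKM in AggreWell, and 1.59, 1.38 and 1.54 FPKM in 2D. The DRCC libraries lay below all 2D libraries, and the AggreWell libraries above them. AXIN2 rose in AggreWell against 2D by 0.67 on the log2 scale (SE 0.05, limma, adjusted p = 1.36e-07). Against 2D it was lower at 30 rpm by 0.38 (SE 0.05) and at 1 rpm by 0.39 (SE 0.05). Against AggreWell the differences were -1.05 ± 0.05 at 30 rpm and -1.06 ± 0.05 at 1 rpm. The DRCC speeds differed by 0.01 ± 0.05, with an adjusted p of 0.890. At such low levels the size depended on the setting. Against 2D it was -0.65 at 30 rpm and -0.66 at 1 rpm with a pseudocount of 0.1, and -0.77 and -0.75 under quantile normalization, while the AggreWell value ran from 0.42 under quantile normalization to 0.99 with voom on recovered fragments. All these kept their direction, and the AggreWell rise its call. The gene passed the PANC-1 filter in 7 libraries, those of AggreWell and 2D and 1 of DRCC, that is mostly through the formats where it was higher. Its DRCC differences from 2D and from AggreWell are therefore descriptions. AXIN2 and DKK1 did not keep step in AggreWell, where the AXIN2 mean was 198% of the 2D mean and the DKK1 mean 99.3% of it.

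In HEK293T, AXIN2 moved little. The libraries had 3.49, 3.30 and 3.06 FPKM at 30 rpm, 3.28, 2.78 and 3.16 FPKM at 1 rpm, 2.87, 2.70 and 2.99 FPKM in AggreWell, and 3.31, 3.70 and 3.24 FPKM in 2D. Only the AggreWell libraries lay wholly below those of 2D. The AggreWell fall of 0.19 on the log2 scale (SE 0.06, adjusted p = 0.0109) ended as a call without 2D replicate 2, where it was -0.15 with an adjusted p of 0.0502, and with mitochondrially encoded genes left out, where it was -0.09 with an adjusted p of 0.186.

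**Figure D2:**
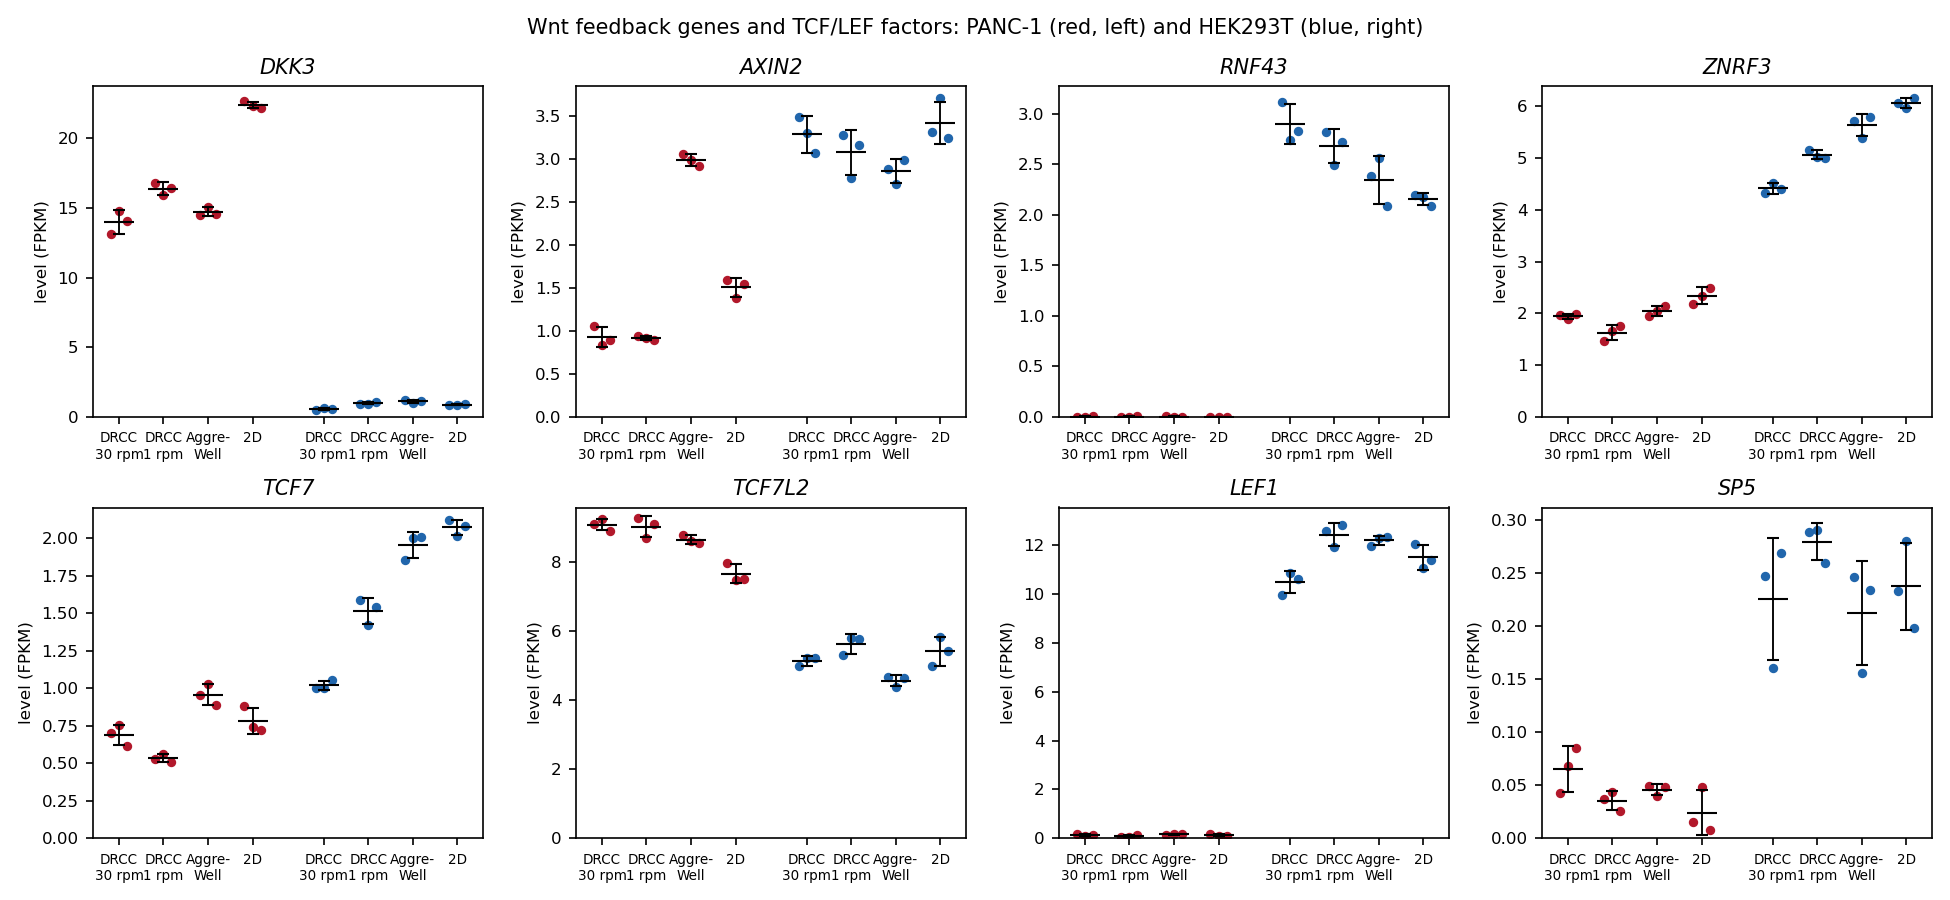
Levels in FPKM of the 8 genes other than DKK1, by culture format, with 1 point per library, a bar at the mean and whiskers of 1 SD (n = 3 libraries), each panel with its own linear axis from 0. RNF43, LEF1 and SP5 are near 0 in PANC-1, while DKK3 and TCF7L2 are higher there than in HEK293T.

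Of the pair of ubiquitin ligases, PANC-1 cells expressed ZNRF3 alone. RNF43 had 3 fragments in all across the 12 PANC-1 libraries, and 9 of them had 0, which allows up to 3 fragments per library. In HEK293T, RNF43 had 3.12, 2.74 and 2.83 FPKM at 30 rpm, 2.82, 2.49 and 2.72 FPKM at 1 rpm, 2.38, 2.56 and 2.09 FPKM in AggreWell, and 2.20, 2.18 and 2.09 FPKM in 2D. All 6 DRCC libraries lay above the 3 of 2D. The differences, 0.30 ± 0.06 at 30 rpm (adjusted p = 0.000367) and 0.22 ± 0.06 at 1 rpm (adjusted p = 0.00399), depended on the scaling. They became -0.055 and -0.23 under quantile normalization, and median-ratio scaling left 0.01 at 1 rpm, with an adjusted p of 0.877.

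ZNRF3 was lower in spheroids than in 2D in both lines, in a different order. HEK293T libraries had 4.32, 4.53 and 4.39 FPKM at 30 rpm, 5.16, 5.03 and 5.005 FPKM at 1 rpm, 5.72, 5.39 and 5.80 FPKM in AggreWell, and 6.06, 5.96 and 6.16 FPKM in 2D, and no 2 of these formats overlapped. ZNRF3 fell at 30 rpm by 0.38 (SE 0.04, adjusted p = 4.48e-07) and at 1 rpm by 0.22 (SE 0.04, adjusted p = 9.95e-05). With mitochondrially encoded genes left out, the 1 rpm value was -0.08 with an adjusted p of 0.0705. The AggreWell value of -0.09 ± 0.04 (adjusted p = 0.0437) lost its call in 10 alternatives, the replicate block among them with an adjusted p of 0.0548, and turned to 0.03 with mitochondrially encoded genes left out. PANC-1 libraries had 1.96, 1.89 and 1.98 FPKM at 30 rpm, 1.46, 1.66 and 1.75 FPKM at 1 rpm, 1.94, 2.05 and 2.14 FPKM in AggreWell, and 2.17, 2.34 and 2.50 FPKM in 2D. Here the lowest group was 1 rpm, with a change against 2D of -0.35 ± 0.05 (adjusted p = 4.39e-05). At 30 rpm it was -0.18 ± 0.05 (adjusted p = 0.00749). The AggreWell value of -0.13 ± 0.05 (adjusted p = 0.0479) was not called in 12 of the alternatives.

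The lines differed in the proportions of TCF7, TCF7L2 and LEF1. In PANC-1, TCF7L2 made up 91.7% of their summed FPKM at 30 rpm, 93.6% at 1 rpm, 88.5% in AggreWell and 89.5% in 2D. In HEK293T the largest share was that of LEF1, with 63.0% at 30 rpm, 63.5% at 1 rpm, 65.2% in AggreWell and 60.6% in 2D. TCF7L2 held between 24.4% and 30.9% in HEK293T. The family's other gene, TCF7L1, is not among the 9 but is expressed in both lines. With it counted in, TCF7L2 made up 55.3% at 30 rpm, 61.3% at 1 rpm, 69.6% in AggreWell and 70.8% in 2D in PANC-1, and TCF7L1 39.7%, 34.5%, 21.4% and 20.9% in the same order. LEF1 then made up 41.7%, 41.97%, 46.8% and 45.9% in HEK293T, and TCF7L1 33.9% at both DRCC speeds, 28.1% in AggreWell and 24.3% in 2D. LEF1 in PANC-1 stayed between 0.0526 and 0.186 FPKM, on 211 fragments over 12 libraries, and between 9.98 and 12.8 FPKM in HEK293T. The lines' LEF1 levels did not approach each other in any format.

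**Figure D3:**
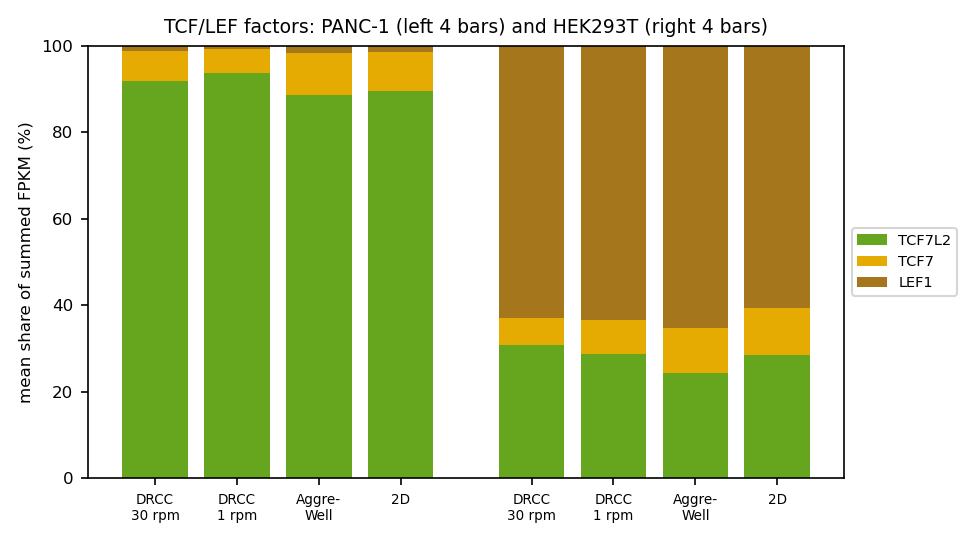
Mean share, in percent, of each factor in the summed FPKM of TCF7L2, TCF7 and LEF1, by line and culture format (n = 3 libraries per bar). TCF7L1 is not counted. TCF7L2 holds between 88.5% and 93.6% in PANC-1, and LEF1 between 60.6% and 65.2% in HEK293T.

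As a fold between formats, though not in FPKM, TCF7 showed the widest range of these factors in HEK293T. It had 1.00, 0.999 and 1.05 FPKM at 30 rpm, 1.59, 1.42 and 1.54 FPKM at 1 rpm, 1.86, 2.00 and 2.01 FPKM in AggreWell, and 2.12, 2.02 and 2.08 FPKM in 2D. The DRCC 30 rpm mean was 49.2% of the 2D mean. TCF7 fell at 30 rpm by 0.61 (SE 0.05, adjusted p = 4.30e-08) and at 1 rpm by 0.29 (SE 0.05, adjusted p = 7.03e-05), and 30 rpm lay below 1 rpm by 0.32 (SE 0.05, adjusted p = 0.000115). The changes against 2D were larger under quantile normalization, at -0.94 and -0.73. In PANC-1 it had 0.699, 0.752 and 0.614 FPKM at 30 rpm, 0.530, 0.564 and 0.510 FPKM at 1 rpm, 0.953, 1.03 and 0.887 FPKM in AggreWell, and 0.880, 0.741 and 0.721 FPKM in 2D. It reached 1 FPKM in 1 PANC-1 library and did not pass the filter. Without the filter its change against 2D was -0.08 at 30 rpm (adjusted p = 0.221), -0.21 at 1 rpm (adjusted p = 0.00268) and 0.14 in AggreWell (adjusted p = 0.0424). The lowest PANC-1 format was 1 rpm, while the lowest HEK293T format was 30 rpm.

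TCF7L2 had 9.10, 9.24 and 8.91 FPKM at 30 rpm in PANC-1, 9.29, 8.69 and 9.10 FPKM at 1 rpm, 8.79, 8.60 and 8.55 FPKM in AggreWell, and 7.98, 7.49 and 7.52 FPKM in 2D. All 9 spheroid libraries lay above 2D. The changes of 0.22 ± 0.04 at 30 rpm (adjusted p = 5.67e-05), 0.21 ± 0.04 at 1 rpm (adjusted p = 8.11e-05) and 0.16 ± 0.04 in AggreWell (adjusted p = 0.00156) were close to the medians of all tested genes, which were 0.17, 0.15 and 0.10. Median-ratio scaling, which sets the typical gene near 0, gave 0.00074 at 30 rpm with an adjusted p of 0.987, -0.000346 at 1 rpm and -0.017 in AggreWell, and at none of them was TCF7L2 called. HEK293T libraries had 4.98, 5.22 and 5.21 FPKM at 30 rpm, 5.30, 5.81 and 5.78 FPKM at 1 rpm, 4.67, 4.38 and 4.64 FPKM in AggreWell, and 5.003, 5.83 and 5.42 FPKM in 2D. Only AggreWell lay wholly below 2D (-0.20 ± 0.05, adjusted p = 0.00279), and this call ended with mitochondrially encoded genes left out (-0.09, adjusted p = 0.125).

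LEF1 in HEK293T had 9.98, 10.9 and 10.6 FPKM at 30 rpm, 12.6, 11.9 and 12.8 FPKM at 1 rpm, 11.98, 12.3 and 12.3 FPKM in AggreWell, and 12.04, 11.1 and 11.4 FPKM in 2D. The 30 rpm libraries were below all others. The change against 2D was -0.12 ± 0.04 at 30 rpm (adjusted p = 0.0151) and 0.10 ± 0.04 at 1 rpm (adjusted p = 0.0329). Neither held throughout. The 30 rpm value was 0.04 with mitochondrially encoded genes left out and lost its call without DRCC 30 rpm replicate 1 (-0.09, adjusted p = 0.0747) or 2D replicate 1 (-0.09, adjusted p = 0.0733). The 1 rpm value turned to -0.17 under median-ratio scaling and to -0.11 under quantile normalization. Between the DRCC speeds, 30 rpm was lower by 0.23 (SE 0.04, adjusted p = 0.000634).

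SP5, whose promoter holds the most motif matches of the 6 genes searched, was nearly silent. It had 0.0424, 0.0685 and 0.0853 FPKM at 30 rpm in PANC-1, 0.0367, 0.0436 and 0.0256 FPKM at 1 rpm, 0.0490, 0.0400 and 0.0484 FPKM in AggreWell, and 0.0158, 0.0482 and 0.00821 FPKM in 2D, on 61 fragments in all. HEK293T libraries lay between 0.156 and 0.290 FPKM, on 333 fragments, and all were above all PANC-1 libraries. SP5 passed the filter in neither line, and all HEK293T formats next to each other in level overlapped.

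**Figure D4:**
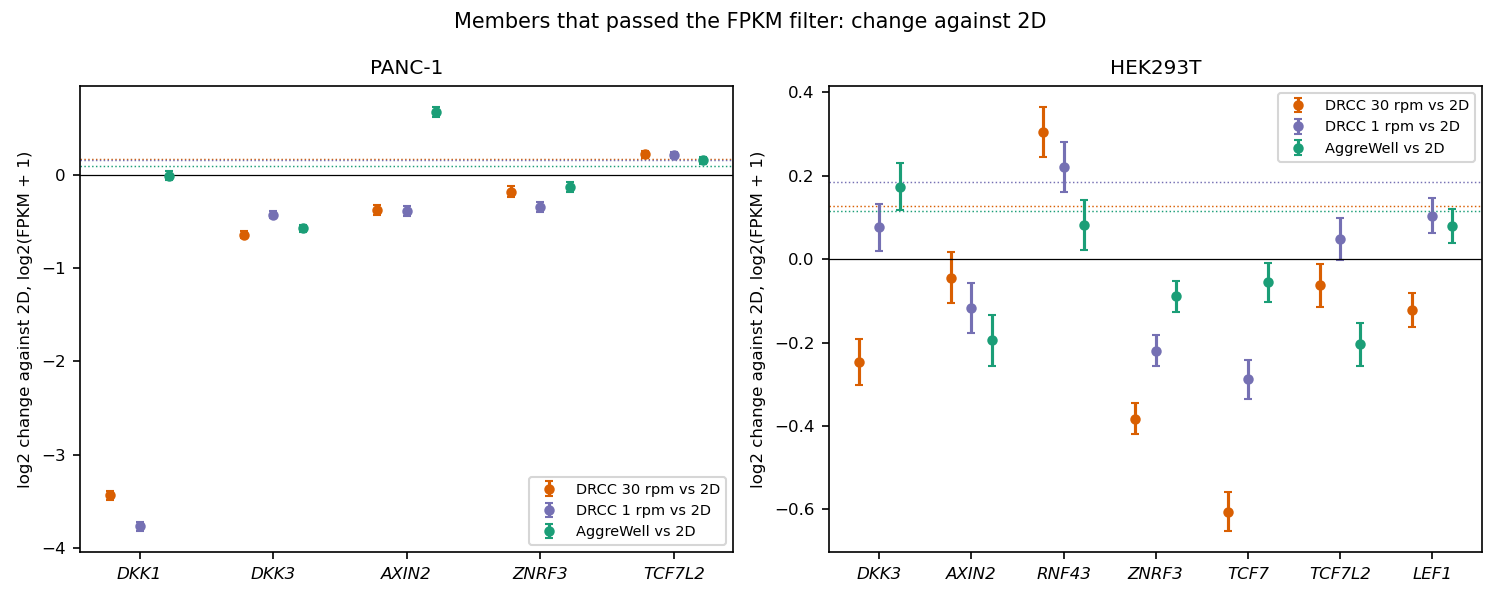
Change against 2D on the log2(FPKM + 1) scale of the genes that passed the filter, with whiskers of 1 SE, for DRCC 30 rpm, DRCC 1 rpm and AggreWell; dotted lines mark the median of all tested genes. DKK1 in PANC-1 reaches -3.44 and -3.77 in DRCC, while no other gene shown goes below -0.64.

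Of the 9 genes, 5 passed the filter in PANC-1 and 7 in HEK293T. DKK1 is left out of the counts that follow, since its level chose the genes, which leaves 4 in PANC-1: DKK3, AXIN2, ZNRF3 and TCF7L2. AXIN2 passed the PANC-1 filter mostly through AggreWell and 2D, so its calls there for DRCC are descriptions. There, 4 of 4 were called at 30 rpm against 2D, where 85.8% of all 11585 tested genes were called, with 1 higher and 3 lower, where 53.6% of all genes were higher and 32.2% lower. At 1 rpm 4 of 4 were called, against 86.2% of all genes, also with 1 higher and 3 lower, where 52.3% of all genes were higher and 33.9% lower. In AggreWell 4 of 4 were called, against 70% of all genes, with 2 higher and 2 lower, where 45.9% of all genes were higher and 24.1% lower. The median change of the 4 genes was -0.28 at 30 rpm, -0.37 at 1 rpm and 0.01 in AggreWell. With median-ratio scaling or quantile normalization the 1 higher gene, TCF7L2, was not called in DRCC. Against AggreWell, 1 of 4 was called at 30 rpm, AXIN2, where 83.3% of all genes were, and 3 of 4 at 1 rpm, where 82% were. Between 30 rpm and 1 rpm, 2 of 4 were called, DKK3 and ZNRF3, where 68.1% of all genes were.

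In HEK293T, 5 of 7 were called at 30 rpm against 2D, where 85% of all 12548 tested genes were called, with 1 higher and 4 lower, where 49.6% of all genes were higher and 35.5% lower. At 1 rpm 4 of 7 were called, against 84.8% of all genes, with 2 higher and 2 lower, where 53.1% of all genes were higher and 31.7% lower. AggreWell had 4 of 7 called, against 75.4% of all genes, with 1 higher and 3 lower. Of all genes, 48.6% were higher there and 26.8% lower. The 1 higher gene was DKK3, which passed the filter mostly through the AggreWell libraries, so its call is a description. AXIN2, TCF7L2 and ZNRF3 were the 3 lower. This count of 4 fell to 2 without AggreWell replicate 1. The split in HEK293T moved with the scaling. At 30 rpm it was 1 higher and 6 lower with median-ratio scaling, 0 and 6 with quantile normalization, and 1 and 3 with mitochondrially encoded genes left out. At 1 rpm it was 0 and 5, 0 and 7, and 4 and 1 under these settings, and in AggreWell 0 and 5, 0 and 6, and 3 and 0. Against AggreWell, 7 of 7 were called at 30 rpm, where 78.5% of all genes were, and 3 of 7 at 1 rpm, where 75.6% were. DKK3 is among those 7 with the same limit. Between 30 rpm and 1 rpm, 4 of 7 were called, against 52.6% of all genes. These shares are near those of all genes or rest on very few genes, so the counts set the group apart from other genes in no comparison. The median of all tested genes was itself above 0 against 2D, at 0.17, 0.15 and 0.10 in PANC-1 and 0.13, 0.18 and 0.12 in HEK293T for 30 rpm, 1 rpm and AggreWell. Median-ratio scaling moved the share of higher genes among those called at 30 rpm to 47.8% in PANC-1, against 62.5% without it, and to 46.8% in HEK293T, against 58.3%.

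The lines differed in how the genes responded, and here the difference itself was tested over all 24 libraries. Apart from DKK1, 7 genes passed the filter over both lines, of which RNF43, LEF1 and TCF7 did so through HEK293T and are counted with that limit. In AggreWell against 2D, 4 of 7 genes differed between the lines, where 57% of all 13392 genes did. The PANC-1 change minus the HEK293T change was 0.86 ± 0.08 for AXIN2 (adjusted p = 8.01e-09) and -0.75 ± 0.06 for DKK3 (adjusted p = 2.14e-09). At 1 rpm 5 of 7 differed, where 75.8% of all genes did, and at 30 rpm 7 of 7, where 79.5% did. For DKK1 itself that difference was -3.50 ± 0.12 at 30 rpm and -4.11 ± 0.12 at 1 rpm, given as a description.

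Across all 8 groups the genes fell into those of 1 line and those of both. DKK1 and DKK3 were higher in every PANC-1 library than in any HEK293T library, and so was TCF7L2. ZNRF3, RNF43, LEF1 and SP5 were higher in every HEK293T library. TCF7 was mostly higher in HEK293T, although the highest PANC-1 AggreWell library, at 1.03 FPKM, lay above 2 HEK293T DRCC 30 rpm libraries, at 1.00 and 0.999 FPKM. AXIN2 levels met in 1 format, since the PANC-1 and HEK293T AggreWell libraries overlapped.

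Transcripts of all 5 proteins known to bind DKK1 at the cell surface were detected in both lines, although KREMEN1 averaged under 1 FPKM in PANC-1 AggreWell and 2D. LRP5 had 39.9 ± 1.13 FPKM at 30 rpm in PANC-1, 37.7 ± 1.98 at 1 rpm, 45.1 ± 0.998 in AggreWell and 34.1 ± 1.86 in 2D (SD, n = 3 each). LRP6 had 5.08 ± 0.139, 4.82 ± 0.118, 4.67 ± 0.228 and 3.88 ± 0.1001 FPKM in the same order. The KREMEN proteins draw LRP6 into the cell together with DKK1. In DRCC the KREMEN2 transcript changed more against 2D than those of LRP5 and LRP6. KREMEN2 had 31.8 ± 1.47 FPKM at 30 rpm and 20.2 ± 0.822 at 1 rpm in PANC-1, against 11.5 ± 0.721 in AggreWell and 8.49 ± 1.25 in 2D. It rose against 2D by 1.80 ± 0.08 at 30 rpm (adjusted p = 3.76e-11) and by 1.17 ± 0.08 at 1 rpm (adjusted p = 3.32e-09). KREMEN1 had 1.96 ± 0.0835 FPKM at 30 rpm and 1.98 ± 0.173 at 1 rpm, against 0.759 ± 0.0949 in AggreWell and 0.327 ± 0.0242 in 2D. KREMEN1 passed the filter through the DRCC libraries, so its difference is a description. Of the other 4, LRP5, LRP6, KREMEN2 and CKAP4, all were called higher at 30 rpm in PANC-1, where 53.6% of all genes were higher, 3 at 1 rpm, where 52.3% were, and in AggreWell 3 were higher and 1 lower, where 45.9% and 24.1% were. With median-ratio scaling these counts were 2 higher at 30 rpm, 1 higher and 1 lower at 1 rpm, and 2 higher and 1 lower in AggreWell.

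In HEK293T the co-receptor LRP6 stood out among the DKK1-binding proteins. It had 9.39 ± 0.327 FPKM at 30 rpm and 9.15 ± 0.446 at 1 rpm, against 5.12 ± 0.0611 in AggreWell and 3.37 ± 0.151 in 2D (SD, n = 3 each). The rise against 2D was 1.25 ± 0.04 at 30 rpm (adjusted p = 1.20e-11) and 1.21 ± 0.04 at 1 rpm (adjusted p = 1.80e-11). CKAP4, a membrane protein also known as a DKK1 receptor in cancer cells, had 25.1 ± 1.04 FPKM at 30 rpm, against 48.9 ± 0.730 in 2D, and fell by 0.94 (SE 0.04, adjusted p = 1.50e-10). The list's counts in HEK293T were 2 higher and 2 lower at 30 rpm, 4 and 1 at 1 rpm, and 4 and 0 in AggreWell. Of all genes, 49.6%, 53.1% and 48.6% were higher there in that order, and 35.5%, 31.7% and 26.8% lower. With median-ratio scaling the list had 2 higher and 3 lower in each. In PANC-1, CKAP4 had 53.7 ± 1.18 FPKM at 30 rpm and 43.4 ± 0.934 in 2D.

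Other secreted inhibitors were few. In PANC-1 3 of 17 on the list passed the filter, and at 30 rpm and at 1 rpm against 2D 1 was higher and 2 were lower, while in AggreWell 1 was lower. In HEK293T 4 passed, with 2 higher and 1 lower at 30 rpm, 3 higher at 1 rpm, and 2 higher and 1 lower in AggreWell. Of all PANC-1 genes, 53.6%, 52.3% and 45.9% were higher at 30 rpm, at 1 rpm and in AggreWell, and 32.2%, 33.9% and 24.1% lower. Of all HEK293T genes, 49.6%, 53.1% and 48.6% were higher in that order, and 35.5%, 31.7% and 26.8% lower. SFRP1, which binds Wnt ligands, had 28.2 ± 0.539 FPKM at 30 rpm, 33.3 ± 1.09 at 1 rpm, 28.3 ± 1.06 in AggreWell and 45.9 ± 1.03 in 2D (SD, n = 3 each), and it was listed at 0 in all 12 HEK293T libraries. Its change at 30 rpm was -0.68 ± 0.03 (adjusted p = 1.75e-10). Like DKK3, SFRP1 was lower in all 3 spheroid formats. DKK2, another DKK family member, was listed at 0 in all PANC-1 libraries and had 1.08 ± 0.0832 FPKM at 30 rpm, 2.06 ± 0.342 at 1 rpm, 0.180 ± 0.0435 in AggreWell and 0.308 ± 0.0445 in 2D for HEK293T. It passed the filter through the DRCC libraries, so its difference at 1 rpm from 2D, 1.22 ± 0.08, is a description. DKK2 is among the 4 counted in HEK293T, so those counts carry the same limit. DKK4 stayed at or under 0.350 FPKM in all 24 libraries.

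Other known Wnt target genes moved in both directions in rotated PANC-1 cells. Of 22 on the list 9 passed the filter there. At 30 rpm 7 were higher and 2 lower against 2D, where 53.6% of all genes were higher and 32.2% lower. The median change of the 9 was 0.85, and the counts were 6 and 3 with median-ratio scaling. At 1 rpm 4 were higher and 2 lower, where 52.3% and 33.9% of all genes were. NKD2, an inhibitor of the Dishevelled protein, had 13.5 ± 0.651 FPKM at 30 rpm and 8.54 ± 0.236 at 1 rpm, against 2.16 ± 0.237 in AggreWell and 1.46 ± 0.0789 in 2D. It rose by 2.56 ± 0.06 at 30 rpm (adjusted p = 5.20e-14). MYC, a growth regulator, had 179.8 ± 2.78 FPKM at 30 rpm and 90.5 ± 3.64 at 1 rpm, against 17.6 ± 0.706 in AggreWell and 30.5 ± 3.73 in 2D, and rose by 2.53 ± 0.06 at 30 rpm (adjusted p = 1.88e-13). CCND1, which encodes cyclin D1, fell. It had 59.7 ± 0.837 FPKM at 30 rpm and 40.4 ± 0.622 at 1 rpm, against 130.2 ± 1.93 in AggreWell and 158.1 ± 4.42 in 2D, with changes of -1.39 ± 0.03 (adjusted p = 1.13e-14) and -1.94 ± 0.03 (adjusted p = 7.11e-16). AggreWell had 3 higher and 6 lower, where 45.9% of all genes were higher and 24.1% lower.

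In HEK293T 16 of the 22 targets passed, with 6 higher and 7 lower at 30 rpm against 2D, the same counts at 1 rpm, and 8 higher and 6 lower in AggreWell. Of all genes, 49.6%, 53.1% and 48.6% were higher in these formats, and 35.5%, 31.7% and 26.8% lower. SOX4 led, with 88.3 ± 1.60 FPKM at 30 rpm and 64.4 ± 2.25 at 1 rpm, against 32.5 ± 0.776 in AggreWell and 27.8 ± 2.43 in 2D. Its rise at 30 rpm was 1.64 ± 0.05 (adjusted p = 3.27e-12). CCND1 was lower in HEK293T too, at 14.4 ± 0.282 FPKM at 30 rpm against 27.8 ± 0.275 in 2D (-0.90 ± 0.03, adjusted p = 9.33e-12). With median-ratio scaling the HEK293T counts were 5 higher and 10 lower at 30 rpm, 6 and 9 at 1 rpm, and 5 and 8 in AggreWell, where the balance turned. With quantile normalization they were 4 and 11, 4 and 10, and 3 and 8.

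**Figure D5:**
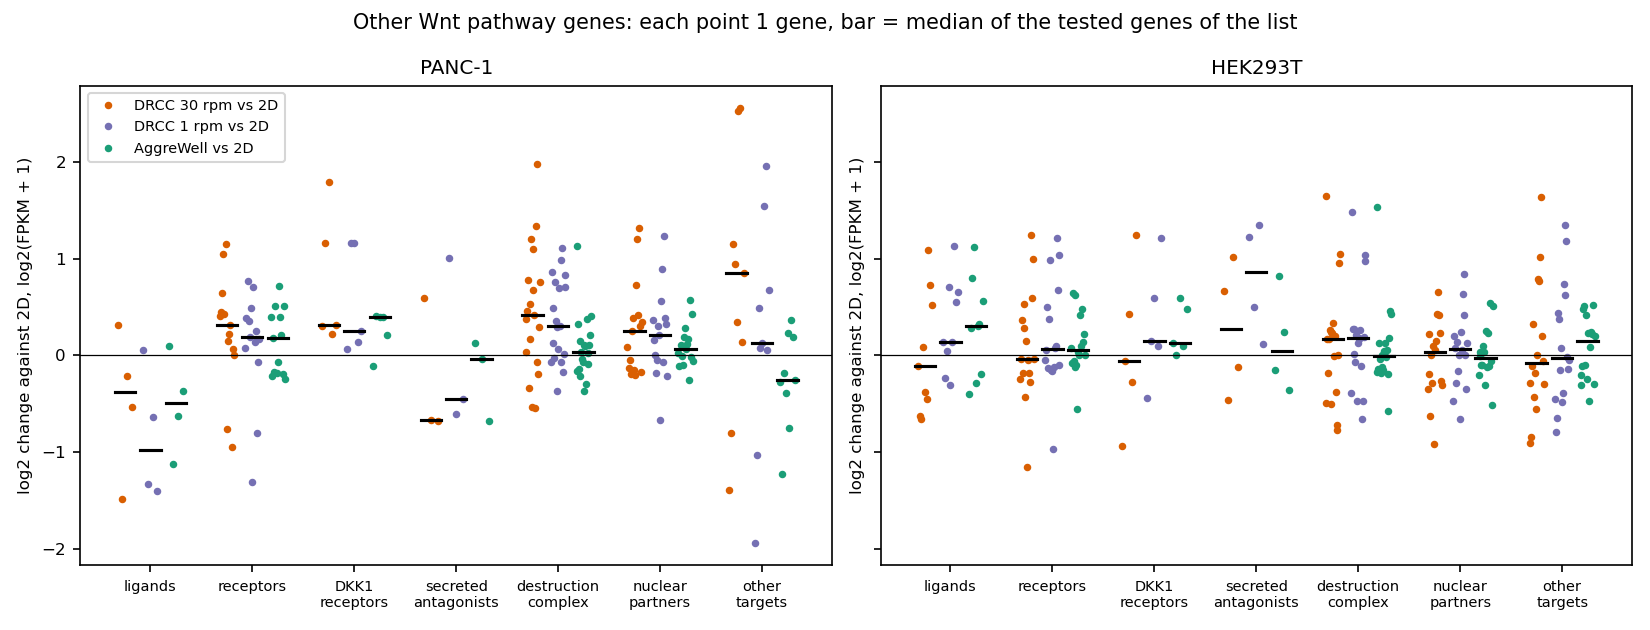
Change against 2D on the log2(FPKM + 1) scale of the other Wnt pathway genes that passed the filter, grouped by role, with 1 point per gene and a black bar at the list's median. In PANC-1 3 of the 4 ligands lie below 0 in each format, and the other target genes at 30 rpm have a median of 0.85.

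The genes whose changes against 2D came closest to those of DKK1 over both lines were found among 9807 genes with a mean of at least 5 FPKM in some group, by the root mean square difference over 6 log2 changes. They were FEN1 (0.68), a nuclease of DNA replication, the chemokine CCL2 (0.77), the kinetochore gene SKA3 (0.79), the cell cycle phosphatase gene CDC25A (0.81) and EDN1 (0.85), which encodes endothelin-1. FEN1 had 8.47 ± 0.751 FPKM at 30 rpm and 10.4 ± 0.953 at 1 rpm in PANC-1, against 61.1 ± 2.06 in AggreWell and 72.8 ± 1.49 in 2D. CCL2 had 4.17 ± 0.264 FPKM at 30 rpm and 10.3 ± 0.360 at 1 rpm, against 32.3 ± 1.25 in AggreWell and 43.6 ± 2.23 in 2D. In PANC-1 AggreWell against 2D, DKK1 changed by -0.01 on the log2 scale. There the change was -0.25 for FEN1, -0.42 for CCL2, -0.13 for SKA3, -0.69 for CDC25A and -1.34 for EDN1. EDN1 had 8.69 ± 0.183 FPKM in AggreWell against 23.6 ± 1.43 in 2D. In HEK293T, CCL2 averaged 0.0136 FPKM at 30 rpm, 0.0249 at 1 rpm and 0 in AggreWell and 2D. EDN1 averaged 0.04997, 0.0423, 0.00991 and 0.0129 FPKM there in the same order. At such levels the HEK293T changes of CCL2 and EDN1 stay near 0 by construction. Their likeness to DKK1 in that line therefore shows no shared response. DKK1 itself was low in HEK293T and did not pass the filter there. Its HEK293T changes were 0.18 in AggreWell, 0.34 at 1 rpm and 0.06 at 30 rpm. In the same order FEN1 changed by -0.26, -0.60 and -0.48, and CDC25A by -0.22, -0.23 and -0.17. SKA3 changed by 0.23, 0.02 and 0.16. The ranking describes likeness over these 6 changes and was not tested.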

How the data were processed

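FPKM values of 24 libraries were deposited by the authors in 1 table. The submitters' processing notes name fastp, HISAT2, HTSeq and R 3.2.0 without their roles, and the mouse build mm10, although the table's symbols are human. Per the labels' protocols, TRIzol was used for total RNA and a VAHTS Universal V10 kit for the libraries. Poly(A) selection and strand are not stated there, and overlapping or antisense genes could therefore share reads. Groups and replicate numbers came from the labels.

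For 26449 of the 26450 genes every value was a whole multiple of 1 fragment (tolerance 0.01), which gave totals of 32021638 to 39556154 fragments per library. Intervals of counting were not added, because the spread between libraries is given. FPKM relates a gene to its library's total, so a change in abundant genes shifts all others.

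Values were tested as log2(FPKM + 1), with a pseudocount of 1, by limma's moderated linear model (limma 3.58.1, R 4.3.3, variance trend). The filter, at least 1 FPKM in at least 3 libraries, left 11585 PANC-1 genes, 12548 HEK293T genes and 13392 genes for both lines. Each line was fitted over its 12 libraries, and the line difference over 24. P-values were adjusted by Benjamini-Hochberg over all genes kept, and an adjusted p under 0.05 was called. The script was tested on simulated data. Shares and figures were made in Python 3.11.15 with pandas 2.3.3 and matplotlib 3.10.9.

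The 9 genes, the other Wnt lists and the tests were chosen with earlier results of these data known, so their counts and p-values are not independent evidence. From each list the rule named up to 3 called genes with the largest change and a mean of at least 2 FPKM in either format. The text gives a part of those changed by at least 0.5, picked for a known role after the values were seen, and for the DKK1-binding list every gene in PANC-1. KREMEN1, DKK4 and CTNNB1 are outside that rule and are named because of their known role. Lists share members, such as LRP6. Alternatives were pseudocount 0.1, no filter, a mean of at least 5 FPKM, median-ratio and quantile scaling, mitochondrially encoded genes left out, robust variance shrinkage, only the compared formats, voom on recovered fragments, a replicate block, and each library left out. Protein sequences were not used here.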

Additional observations from a re-analysis of the deposited data

Results flagged for a closer look

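For 7 genes the change with culture format differed between the lines past the threshold in at least 1 format, by the interaction test in limma with Benjamini-Hochberg adjustment, a test that 79.5% of all genes passed at 30 rpm, 75.8% at 1 rpm and 57% in AggreWell. RNF43, LEF1 and TCF7 entered it through HEK293T, since at most 1 PANC-1 library reached 1 FPKM for any of them, so their values are given as descriptions. Each value below is the change against 2D in PANC-1 minus that in HEK293T, on the log2(FPKM + 1) scale, and each is given without an explanation. At 30 rpm, AXIN2 differed by -0.34 (SE 0.08, adjusted p = 0.000514) and DKK3 by -0.40 (SE 0.06, adjusted p = 5.19e-06). At the same speed TCF7L2 differed by 0.28 and ZNRF3 by 0.20, with adjusted p of 0.000244 and 0.00449. The differences were -0.30 for RNF43, 0.14 for LEF1 and 0.53 for TCF7.

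At 1 rpm, AXIN2 differed by -0.27, DKK3 by -0.50 and TCF7L2 by 0.16, with adjusted p of 0.00351, 2.15e-07 and 0.01997, and the differences were -0.16 for LEF1 and -0.22 for RNF43. In AggreWell, AXIN2 differed by 0.86, DKK3 by -0.75 and TCF7L2 by 0.36, with adjusted p of 8.01e-09, 2.14e-09 and 3.54e-05, and the difference was 0.19 for TCF7.

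Several of these differences did not hold in all settings. At 30 rpm, DKK3 was -0.15 with a pseudocount of 0.1 (adjusted p = 0.152) and -0.11 with voom (adjusted p = 0.611), and HEK293T had 0.507 to 0.636 FPKM in that format, against 0.821 to 0.913 FPKM in 2D. Under quantile normalization AXIN2 at 1 rpm was -0.08 (adjusted p = 0.376) and DKK3 at 1 rpm -0.13 (adjusted p = 0.0718). With mitochondrially encoded genes left out, TCF7L2 was 0.10 at 30 rpm (adjusted p = 0.155) and 0.09 at 1 rpm (adjusted p = 0.221), and ZNRF3 at 30 rpm 0.03 (adjusted p = 0.662), while voom gave 0.17 for ZNRF3 (adjusted p = 0.0663). TCF7L2 at 1 rpm was not called when any 1 of 3 libraries was left out (adjusted p up to 0.0719), LEF1 at 1 rpm when any 1 of 5 was (up to 0.0703), and LEF1 at 30 rpm when any 1 of 7 was (up to 0.118). RNF43 turned to 0.16 at 30 rpm and 0.33 at 1 rpm with voom, and to 0.071 and 0.26 with quantile normalization. DKK1 was left out, because its level in PANC-1 chose the genes.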

How the results depend on the processing

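DKK1 in PANC-1 stayed far below 2D in both DRCC groups in all alternatives. At 30 rpm it was -3.67 with median-ratio scaling and -3.54 with voom on recovered fragments, and at 1 rpm -3.89 with a pseudocount of 0.1, -4.00 with median-ratio scaling and -3.90 with voom. Leaving out 1 library gave -3.48 to -3.39 at 30 rpm and -3.81 to -3.72 at 1 rpm. The counts here leave out DKK1, whose PANC-1 level chose the genes. AXIN2 and DKK3 are counted with the filter limits given above. A mean of at least 5 FPKM keeps fewer of the genes by construction. In HEK293T it called 2 at 30 rpm, 2 at 1 rpm and 2 in AggreWell against 2D. Of all 8078 genes, 7104, 7049 and 6346 were called there. It called 3 at 30 rpm against AggreWell and 2 at 30 rpm against 1 rpm, where 6563 and 4601 of all genes were. Quantile normalization called 3 in PANC-1 at 30 rpm against AggreWell, in place of 1, where 9766 of 11585 genes were called. In HEK293T at 1 rpm against 2D it called 7, in place of 4, where 10291 of 12548 were. With mitochondrially encoded genes left out, 3 were called in PANC-1 at 30 rpm against AggreWell, where 9682 of 11572 were. For the line difference at 30 rpm 4 were called, in place of 7, where 10632 of 13379 were. Leaving out 1 library gave 2 to 4 calls in HEK293T AggreWell against 2D, with 2 without AggreWell replicate 1. The causes were not tested.

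Directions turned in these cases. Median-ratio scaling gave -0.017 for TCF7L2 in PANC-1 AggreWell and -0.000346 at 1 rpm, -0.17 for LEF1 in HEK293T at 1 rpm, and 0.033 for LEF1's line difference at 1 rpm. Quantile normalization gave -0.18 for DKK3 in HEK293T AggreWell, -0.23 for RNF43 at 1 rpm and -0.055 at 30 rpm, -0.11 for LEF1 at 1 rpm, and 0.26 and 0.071 for RNF43's line difference at 1 and 30 rpm. With mitochondrially encoded genes left out, ZNRF3 in HEK293T AggreWell was 0.025, LEF1 at 30 rpm 0.042 and LEF1's line difference at 30 rpm -0.027. Voom gave 0.33 and 0.16 for RNF43's line difference at 1 and 30 rpm. Directions of differences not called were not followed. The 93 values of other Wnt genes that moved by at least 0.5 kept direction and call in 894 fits with another setting and 1116 without 1 library. Fits whose filter dropped the gene are not counted. These 93 values were picked as called and among the largest of their lists, so their stability says nothing about smaller changes.

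The replicate numbers were not used as pairs in the main fit. Only 7 of 36 same-numbered pairs correlated above 0.1 in their deviations from the group mean (range -0.10 to 0.43), and in 11 of 36 pairings of a library with another format the best correlated library carried its own number. Apart from 1 PANC-1 pair, those above 0.1 lay among HEK293T 2D, AggreWell and 1 rpm. Between 1 rpm and 2D all 3 pairs were above 0.1, from 0.15 to 0.43. There were 2 between AggreWell and 2D, and 1 between 1 rpm and AggreWell. Replicate 2 correlated at 0.43, 0.29 and 0.23 in these comparisons. A shared replicate structure there was not tested beyond the block. For HEK293T 1 rpm against 2D the block gave 4 calls, the same number as without it. With the replicate block HEK293T AggreWell against 2D had 3 calls in place of 4, without ZNRF3, and HEK293T 1 rpm against AggreWell 4 in place of 3. Voom, the test on recovered fragments, called 10019 of 11585 PANC-1 genes at 1 rpm against 2D. Depth limits DKK1 in HEK293T and LEF1, SP5 and RNF43 in PANC-1.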

Other observations

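Few Wnt ligands were measured in PANC-1. Of 19 on the list 4 passed the filter, and 3 were lower against 2D at 30 rpm, at 1 rpm and in AggreWell, where 32.2%, 33.9% and 24.1% of all genes were lower, while WNT3 was higher at 30 rpm. With median-ratio scaling or quantile normalization no ligand was called higher at that speed. WNT5B had 2.39 ± 0.164 FPKM at 30 rpm, 2.78 ± 0.264 at 1 rpm, 3.34 ± 0.0344 in AggreWell and 8.51 ± 0.976 in 2D (SD, n = 3 each), a change of -1.48 ± 0.07 at 30 rpm (limma, adjusted p = 1.49e-10). WNT9A changed most at 1 rpm, with 2.93 FPKM against 9.41 FPKM in 2D (-1.40 ± 0.05, adjusted p = 2.39e-12). In HEK293T 9 passed, with 3 higher and 4 lower at 30 rpm, where 49.6% of all genes were higher and 35.5% lower. WNT3A had 5.14 FPKM in AggreWell against 1.83 FPKM in 2D (1.12 ± 0.04, adjusted p = 9.84e-11). PORCN, the enzyme that attaches a lipid to Wnt ligands, had 5.95 FPKM at 30 rpm in PANC-1 against 3.11 FPKM in 2D (0.76 ± 0.05, adjusted p = 1.43e-09).

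Receptors and intracellular parts moved in both directions. At 30 rpm 53.6% of all PANC-1 genes were higher than in 2D and 32.2% lower, and 49.6% and 35.5% of all HEK293T genes were. The counts below at that speed are to be read beside these shares. Of 18 receptors 13 passed in PANC-1, with 9 higher and 2 lower at 30 rpm, and 7 and 4 with median-ratio scaling. FZD7 had 5.82 ± 0.117 FPKM at 30 rpm and 2.07 ± 0.109 in 2D (1.15 ± 0.06, adjusted p = 3.97e-10), while ROR1 had 1.08 FPKM and 3.01 FPKM (-0.95 ± 0.06, adjusted p = 3.61e-09). Of 19 genes of the destruction complex and its partners 13 were higher and 4 lower at 30 rpm in PANC-1, and in HEK293T, where 18 passed, 10 and 6, or 4 and 8 with median-ratio scaling. FRAT2, which binds GSK3, had 16.9 ± 0.616 FPKM at 30 rpm and 3.54 ± 0.148 in 2D (1.98 ± 0.04, adjusted p = 4.17e-14). APC, a scaffold of the complex, passed the filter in HEK293T through the spheroid libraries, with 4.40 ± 0.167 FPKM at 30 rpm, 3.79 ± 0.201 at 1 rpm, 3.99 ± 0.160 in AggreWell and 0.723 ± 0.152 in 2D. It is among the 18 counted in HEK293T, so the counts there are descriptions where APC enters them. CTNNB1, the beta-catenin gene, had 68.8 ± 1.20 FPKM at 30 rpm and 99.97 ± 2.95 in 2D in PANC-1, and 69.0 ± 0.359 and 98.0 ± 3.61 FPKM in HEK293T. Of 15 nuclear partners tested in PANC-1 8 were higher and 5 lower at 30 rpm, or 6 and 7 with median-ratio scaling. Among them TCF7L1, a TCF that mostly represses, had 6.55 ± 0.661 FPKM at 30 rpm and 2.27 ± 0.289 in 2D in PANC-1 (1.21 ± 0.07, adjusted p = 1.42e-09).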
